A study of Mus musculus with 12 samples.

Results

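A set of 34 genes, grouped as genes of activated microglia and macrophages, was followed in whole mouse retina. It also holds general genes of the lineage, such as Spi1 and Ptprc, so a higher value is not by itself a sign of activation. The genes were chosen as a list of symbols, and each symbol matched exactly 1 of the 56748 genes in the deposited table. Poly-A RNA was sequenced from 12 libraries, each made from the retina of a different mouse, in 4 groups of 3: C57BL/6J (called wild-type in the labels) at 4 and at 8 weeks of age and JR5558 at 4 and at 8 weeks. JR5558 is an inbred line known for new vessels that grow into the subretinal space without any injury. From background knowledge it also carries rd8, an allele of Crb1, and a variant allele of Jak3, so that every JR5558 group differs from C57BL/6J by both together. No agent was given to any group, and the labels do not give the sex of the mice. Of the 34 genes, 31 had enough counts to be tested, and Itgax, Ms4a7 and Cybb did not. Errors after ± are standard errors for log2 fold changes and SD for levels, with n = 3 mice per group throughout.

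Microglia are the resident phagocytes of the retina. In their resting state they express purinergic and fractalkine receptors. On contact with dying photoreceptors, lipid debris or new vessels they raise a further programme, which macrophages that enter from blood share in large part: phagocytic receptors that signal through the adaptors TYROBP and FCER1G, lysosomal proteases that digest the cargo, an oxidase that makes superoxide, and lipid carriers. PU.1, the product of Spi1, is the transcription factor that sets up this lineage and binds purine-rich DNA with a GGAA core.

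Library totals ran from 18029611 to 23739886 counts, and rhodopsin, the rod pigment, took 3.61% to 4.13% of them, so the tissue was retina in every library. The 3 JR5558 libraries of 4 weeks held 0 to 5 counts of Xist and 1323 to 1846 of the Y-linked gene Ddx3y, whereas the other 9 libraries held 7772 to 22988 counts of Xist and 0 of Ddx3y. Strain and sex therefore cannot be told apart at 4 weeks, nor age and sex within JR5558. The 6 libraries of 8 weeks were alike in these genes, and of the 34 members 33 lie on autosomes and 1, Cybb, on the X chromosome. Because these are whole retinas, more cells of a type and more RNA per cell cannot be told apart in any value that follows.

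The members spanned a wide range of levels. On the deposited FPKM scale, which is per length and so allows genes to be compared, the median over the 12 libraries ran from 583 for Cst3, the secreted cysteine protease inhibitor cystatin C, and 403 for Apoe, the lipid carrier apolipoprotein E, down to 0.0216 for Itgax, the integrin chain CD11c. Cathepsin D (Ctsd, 99.5) and cathepsin B (Ctsb, 84.4) came next, then Cd9 (29.8), Ctsz (23.7), Cd63 (16.1) and Ctss (10.8). Cst3, Apoe, Ctsd and Ctsb together made up 91.1% of the members' summed FPKM. These 4 genes are also made by glia and neurons, and their levels in whole retina cannot be assigned to myeloid cells. Genes closer to the lineage were far lower: the median FPKM was 2.71 for Tyrobp, 1.69 for Mpeg1, 0.458 for Aif1, 0.369 for Trem2 and 0.294 for Spi1. The neighbours Ctsd and Ctsb overlapped in range (78.7 to 127 against 72.7 to 91.0), as did Cd9 and Ctsz (20.4 to 37.7 against 17.5 to 31.7).

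**Figure D1:**
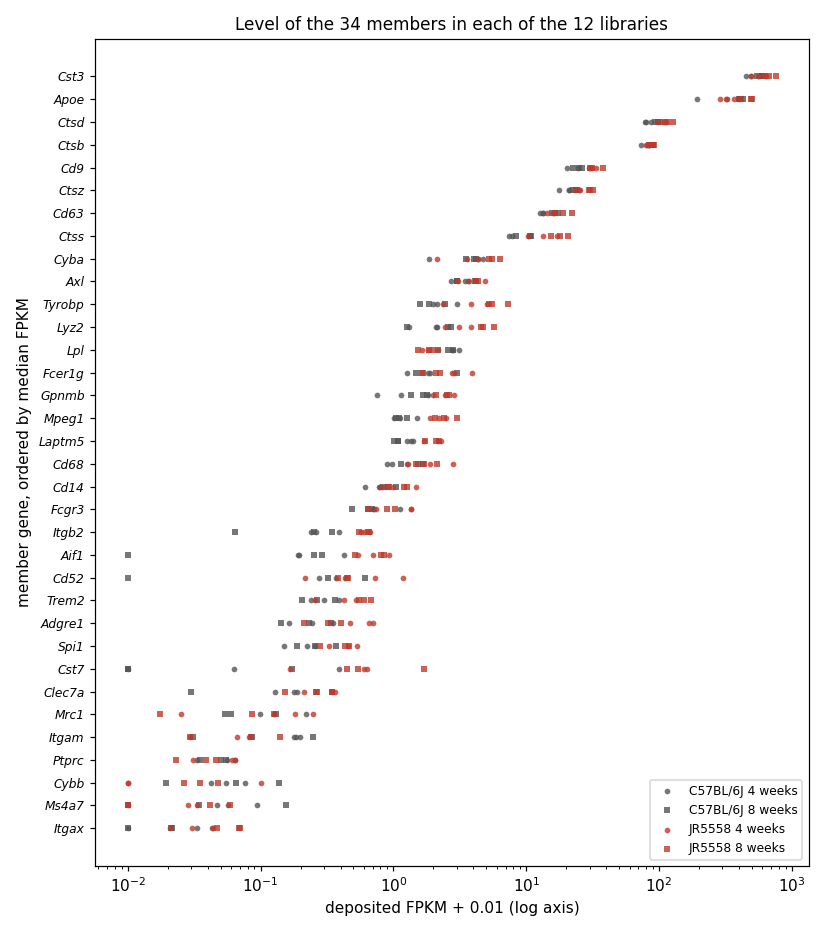
Deposited FPKM plus 0.01 on a log axis for the 34 members (rows, ordered by median), with 1 point per library, grey for C57BL/6J, red for JR5558, circles for 4 weeks and squares for 8 weeks. Cst3 and Apoe stand at the top, Itgax at the bottom, and the strains differ by far less than the genes do.

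At 4 weeks, 5 of the 31 tested members were higher in JR5558 than in C57BL/6J and 1 was lower. All 5 that rose are in the lysosomal group: Mpeg1, Gpnmb, Ctss, Laptm5 and Ctsd. The one that fell was Lpl, lipoprotein lipase. Among all 18334 tested genes 3.27% were called higher and 2.9% lower in the same comparison (edgeR's quasi-likelihood test, Benjamini-Hochberg adjusted p under 0.05). The median log2 fold change was 0.59 over the members and 0.00 over all genes, and 28 of the 31 members had a positive value. In 16 members the lowest of the 3 JR5558 libraries exceeded the highest of the 3 from C57BL/6J, a separation that 10.1% of all tested genes showed. Aif1 and Clec7a, among these 16, had enough counts to be tested only with JR5558 libraries counted. In 2 members the order was the reverse, against 9.55% of all genes. Itgam, among these 2, had enough counts to be tested only with C57BL/6J libraries counted. A fit of the 6 libraries of 4 weeks alone, in place of all 12, called 3 of 29 members and 3.21% of all genes it tested (558 genes, against 1130 in the fit of all 12). Leaving out C57BL/6J replicate 2 or JR5558 replicate 1 also left 3 calls.

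At 8 weeks, 9 of the 31 were higher in JR5558 and 1 was lower, against 2.54% and 2.63% of all tested genes. Without Cst7, which no C57BL/6J library carried past the filter on low counts, 8 of 30 were higher. The signalling adaptor Tyrobp, the tetraspanin Cd9, and the lysosomal genes Lyz2, Ctsz and Cst7 joined Mpeg1, Laptm5, Ctss and Ctsd, and Lpl was again the one that fell. The median log2 fold change was 0.40 over the members and 0.00 over all genes, with 26 of the 31 positive. JR5558 was above C57BL/6J without overlap in 16 members (14.9% of all tested genes) and below it in 1 (15.3%). Cst7 and Aif1, among these 16, had enough counts to be tested only with JR5558 libraries counted. A fit of the 6 libraries of 8 weeks alone called 14 of 29 members, but it also called 12.5% of all genes it tested (2183 genes, against 949 in the fit of all 12). Leaving out 1 library cut the 10 calls to between 5 and 7, with 5 when either strain's replicate 2 or replicate 3 of JR5558 was out and 6 when C57BL/6J replicate 3 was. Passing at both ages in the same direction were 5 members, Mpeg1, Laptm5, Ctss, Ctsd and Lpl, compared with 3.04% of all tested genes. The strain comparisons at the 2 ages use different mice.

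**Figure D2:**
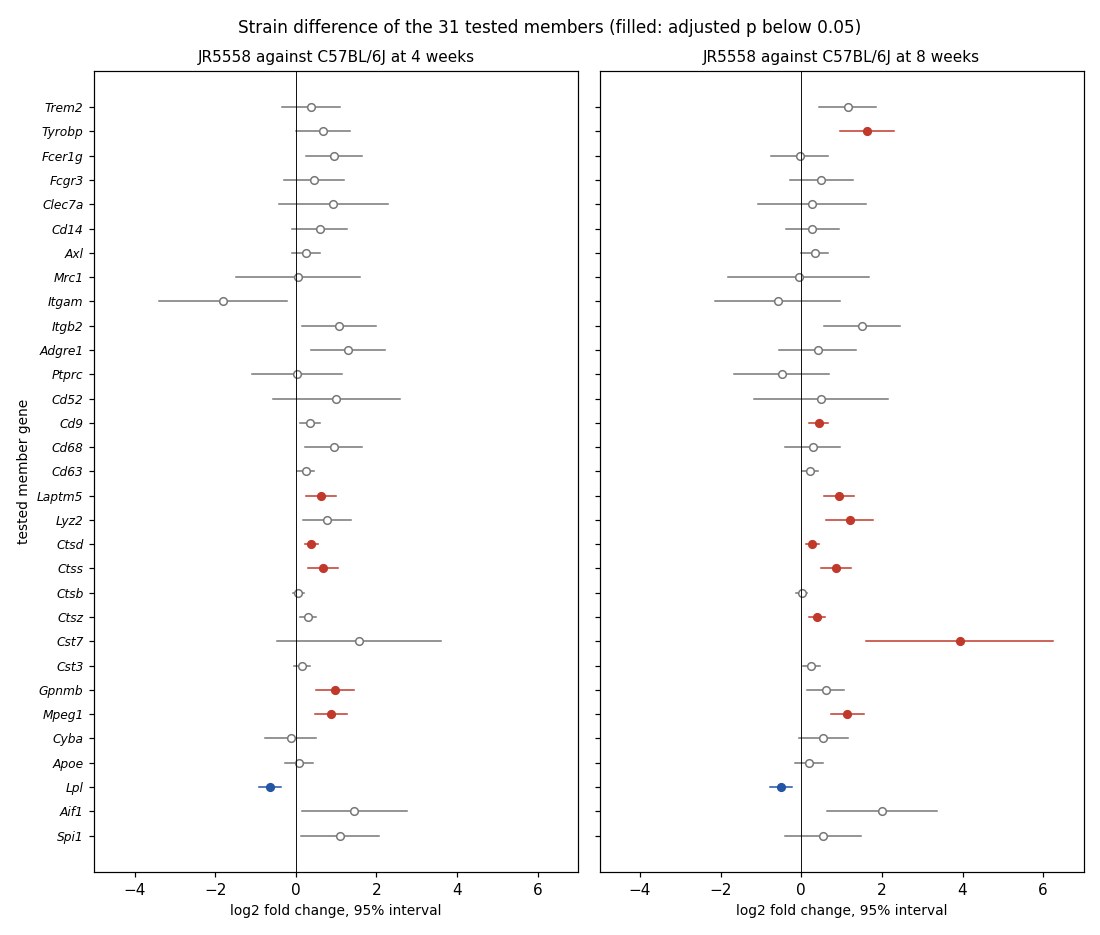
Log2 fold change of JR5558 against C57BL/6J with its 95% interval for the 31 tested members, in 4-week mice (left) and 8-week mice (right), with filled points for adjusted p under 0.05 (red higher, blue lower). Points lie to the right of 0 for 28 members at 4 weeks and 26 at 8 weeks, and intervals are widest for members with few counts, such as Cst7 and Itgam.

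Receptors and signalling adaptors form the first group, and 1 of its 8 tested members changed: Tyrobp, at 8 weeks. Tyrobp encodes DAP12, the adaptor with an ITAM motif through which TREM2 signals (ENSMUSG00000030579, chromosome 7). In C57BL/6J it stood at 2.01, 1.43 and 1.32 CPM (a count scaled to its TMM-adjusted library size) at 4 weeks and at 1.63, 1.05 and 1.23 CPM at 8 weeks. In JR5558 it stood at 2.60, 1.57 and 3.44 CPM at 4 weeks and at 3.55, 3.73 and 4.86 CPM at 8 weeks. At 8 weeks the lowest JR5558 library was above the highest C57BL/6J library. The log2 fold change was 1.62 ± 0.32 (edgeR adjusted p = 0.00382), and the call held in all 6 refits that left out 1 library. At 4 weeks the groups overlapped, since JR5558 replicate 2 lay among the C57BL/6J libraries, with 0.68 ± 0.32 (edgeR adjusted p = 0.253).

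Trem2, the lipid-sensing receptor that pairs with TYROBP, had counts of 21, 23 and 33 in C57BL/6J and 55, 66 and 70 in JR5558 at 8 weeks. These groups did not overlap, but the log2 fold change of 1.16 ± 0.34 missed the threshold (edgeR adjusted p = 0.0550). Trem2 at 4 weeks overlapped between the strains (0.38 ± 0.34, edgeR adjusted p = 0.607). The other ITAM adaptor of the set, Fcer1g, the gamma chain of activating Fc receptors, had another order. Its CPM was 1.11, 1.59 and 1.65 in C57BL/6J and 3.47, 2.40 and 2.50 in JR5558 at 4 weeks, a separation of 0.94 ± 0.33 that did not pass (edgeR adjusted p = 0.109). By 8 weeks the strains overlapped (2.66, 1.44 and 1.28 against 1.85, 1.46 and 1.95 CPM), with a log2 fold change of -0.04 ± 0.33. Tyrobp had the larger strain difference at 8 weeks and Fcer1g at 4 weeks, and the test of the change in strain effect between ages did not pass for either (0.94 ± 0.45, edgeR adjusted p = 0.699, and -0.98 ± 0.47, edgeR adjusted p = 0.693).

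The remaining receptors were not called at either age. Axl, a receptor tyrosine kinase for apoptotic cells, was the most abundant of them by FPKM and had the narrowest error (0.25 ± 0.16 at 4 weeks and 0.33 ± 0.16 at 8 weeks). Cd14, the lipopolysaccharide co-receptor, did not overlap between strains at 4 weeks (0.59 ± 0.33, edgeR adjusted p = 0.342). Nor did Clec7a, the beta-glucan receptor Dectin-1, with 11 to 23 counts in JR5558 against 6 to 10 in C57BL/6J. Clec7a reached the filter on low counts in 0 C57BL/6J libraries at 4 weeks and 2 at 8 weeks, against 3 and 2 in JR5558. Fcgr3, a low-affinity IgG receptor, differed by 0.45 ± 0.36 and 0.50 ± 0.37. Mrc1, the mannose receptor, overlapped at both ages, with 1 to 37 counts in JR5558 and 6 to 24 in C57BL/6J.

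Among integrins and other surface markers, 1 of the 6 tested members changed, Cd9 at 8 weeks. Cd9, a tetraspanin of the cell surface and of secreted vesicles (ENSMUSG00000030342, chromosome 6), stood at 50.7, 42.2 and 60.1 CPM in C57BL/6J and 68.7, 62.2 and 64.8 CPM in JR5558 at 4 weeks. The 8-week values were 46.2, 54.4 and 51.4 CPM against 62.7, 64.4 and 77.4 CPM. The strains were apart at each age, by 0.35 ± 0.12 at 4 weeks (edgeR adjusted p = 0.0829) and 0.43 ± 0.12 at 8 weeks (edgeR adjusted p = 0.0355). The 4-week difference passed when C57BL/6J replicate 3 was left out (0.49, edgeR adjusted p = 0.00825). The 8-week call ended when any 1 library other than JR5558 replicate 1 was left out (edgeR adjusted p 0.0589 to 0.232).

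Itgb2, the beta chain CD18 of the leukocyte integrins, did not overlap between strains at either age. Its counts were 14, 22 and 15 in C57BL/6J and 44, 33 and 41 in JR5558 at 4 weeks, then 22, 3 and 14 against 41, 44 and 35 at 8 weeks. The log2 fold changes of 1.06 ± 0.44 and 1.50 ± 0.45 missed the threshold (edgeR adjusted p = 0.182 and 0.0626). Its partner Itgam, the alpha chain CD11b, went the other way at 4 weeks. There were 16, 16 and 20 counts in C57BL/6J and 7, 7 and 2 in JR5558, with a log2 fold change of -1.81 ± 0.76 (edgeR adjusted p = 0.191). At 8 weeks Itgam overlapped, with 26, 7 and 2 counts against 2, 15 and 8. Itgam reached the filter on low counts in 3 C57BL/6J libraries at 4 weeks and 1 at 8 weeks, against 0 and 1 in JR5558. It therefore had enough counts to be tested only with C57BL/6J libraries counted, the strain where it was high at 4 weeks. Itgax, the third integrin chain of the set, was too low to test. It held 0, 1 and 1 counts in C57BL/6J and 6, 4 and 6 in JR5558 at 8 weeks, a ratio of 7.26 with an exact 95% counting interval of 1.71 to 65.1 that covers counting error only. At 4 weeks its group totals were close, at 5 counts in C57BL/6J and 7 in JR5558.

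Adgre1, the macrophage surface receptor F4/80, separated the strains at 4 weeks only. It had 9, 21 and 16 counts in C57BL/6J and 51, 43 and 31 in JR5558 at 4 weeks (1.30 ± 0.44, edgeR adjusted p = 0.0952), and 23, 13 and 8 against 21, 15 and 27 at 8 weeks (0.40 ± 0.46, edgeR adjusted p = 0.722). The difference between these strain effects did not pass (edgeR adjusted p = 0.810). Ptprc, the pan-leukocyte phosphatase CD45, had 5 to 23 counts per library over all groups and overlapped at both ages. Cd52, a small glycoprotein of leukocytes, had 0 to 27 and also overlapped. Ms4a7, a macrophage surface gene, had 0 to 14 counts and was not tested. Its group totals were lower in JR5558. They were 15 counts in C57BL/6J and 4 in JR5558 at 4 weeks, and 16 against 8 at 8 weeks.

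**Figure D3:**
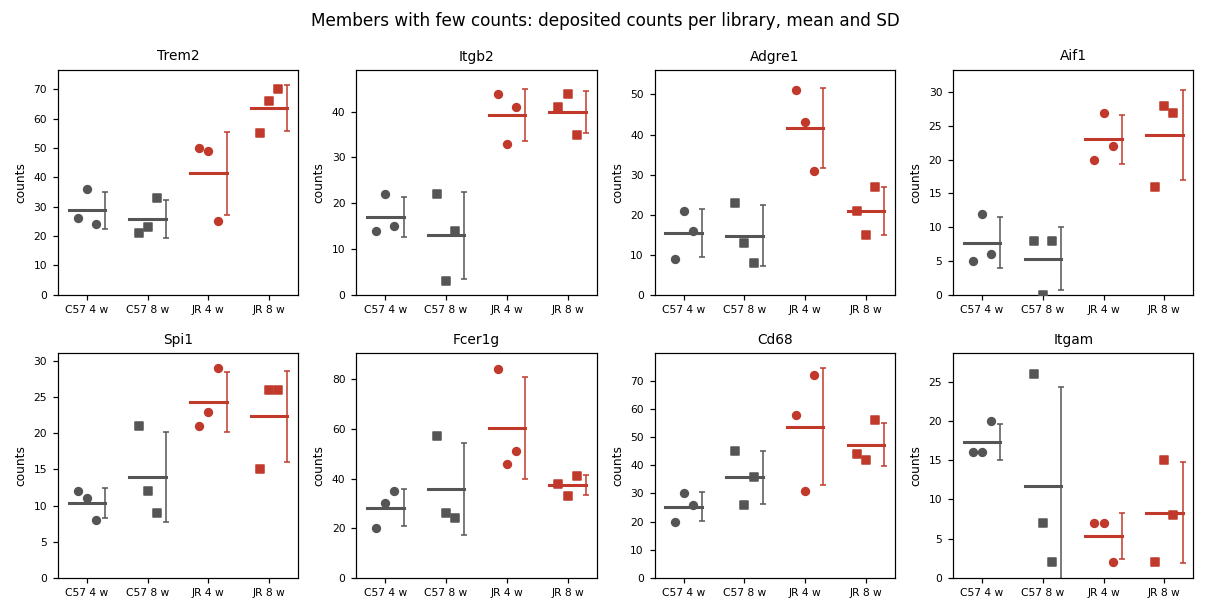
Deposited counts per library for 8 members with few counts, with the mean and SD of each group of 3 (grey C57BL/6J, red JR5558, circles 4 weeks, squares 8 weeks). These 8 were picked from the 16 tested members with a mean under 3 CPM. Others of the 16, such as Fcgr3, Mrc1, Ptprc and Cd52, overlapped between strains at both ages and are not drawn. Itgb2 and Aif1 keep the strains apart at both ages, Trem2 at 8 weeks, Adgre1, Spi1, Fcer1g and Cd68 at 4 weeks, and Itgam is the one of the 8 with lower counts in JR5558 at 4 weeks.

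The lysosomal group held most of the calls: of its 12 members, all tested, 5 were higher at 4 weeks and 7 at 8 weeks, and none was lower. All 12 had positive log2 fold changes at both ages, with medians of 0.65 and 0.50. Without Cst7, which was testable only through JR5558 libraries, 5 and 6 of 11 were higher, with medians of 0.63 and 0.39. Mpeg1, perforin-2, a pore-forming protein of phagocytes (ENSMUSG00000046805, chromosome 19), had the smallest adjusted p of any member at 8 weeks. It stood at 6.57, 4.41 and 4.80 CPM in C57BL/6J and 9.65, 8.21 and 10.9 CPM in JR5558 at 4 weeks. The 8-week values were 5.46, 4.76 and 4.54 CPM against 10.5, 8.96 and 13.2 CPM. The strains were apart at both ages, by 0.87 ± 0.19 (edgeR adjusted p = 0.00851) and 1.14 ± 0.19 (edgeR adjusted p = 0.000832). Without C57BL/6J 4-week replicate 2 the 4-week value missed the threshold (0.74, edgeR adjusted p = 0.0541).

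Laptm5, a lysosomal membrane protein (ENSMUSG00000028581, chromosome 4), stood at 5.29, 4.78 and 5.13 CPM in C57BL/6J and 8.71, 6.43 and 8.30 CPM in JR5558 at 4 weeks. At 8 weeks these values were 3.83, 4.09 and 4.06 CPM against 7.97, 8.43 and 6.53 CPM. C57BL/6J libraries were tightly grouped and every JR5558 library lay above them, by 0.63 ± 0.17 (edgeR adjusted p = 0.0369) and 0.94 ± 0.18 (edgeR adjusted p = 0.00262). The 8-week call held in all 6 refits with 1 library left out. The 4-week call held only without JR5558 replicate 2, and was lost without any of the other 5 libraries (edgeR adjusted p 0.0656 to 0.130). It was also lost in the fit of 4-week libraries alone (edgeR adjusted p = 0.146), with no filter on low counts (edgeR adjusted p = 0.0719) and with the replicate number as a block (edgeR adjusted p = 0.0592).

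Ctss, cathepsin S, a cysteine protease that stays active at neutral pH (ENSMUSG00000038642, chromosome 3), stood at 14.4, 10.2 and 10.5 CPM in C57BL/6J and 23.3, 14.2 and 18.3 CPM in JR5558 at 4 weeks. JR5558 replicate 2 lay just under C57BL/6J replicate 1, so the groups overlapped, although the difference passed (0.67 ± 0.18, edgeR adjusted p = 0.0293). Any 1 of 4 libraries, replicates 2 and 3 of C57BL/6J and 1 and 3 of JR5558, ended the call when left out (edgeR adjusted p 0.0569 to 0.157), and so did the fit of 4-week libraries alone (edgeR adjusted p = 0.103). At 8 weeks the strains were apart, with 11.5, 14.8 and 14.6 CPM against 21.0, 24.5 and 28.4 CPM (0.86 ± 0.18, edgeR adjusted p = 0.00535), and no left-out library ended the call.

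Ctsd, the aspartic protease cathepsin D (ENSMUSG00000007891, chromosome 7), showed a small difference. C57BL/6J values of 206, 187 and 189 CPM compared with 267, 232 and 260 CPM in JR5558 at 4 weeks, and 240, 231 and 221 CPM with 270, 265 and 301 CPM at 8 weeks. No library of one strain fell within the other at either age. The log2 fold change was 0.38 ± 0.08 at 4 weeks (edgeR adjusted p = 0.00363), a call that held in every leave-one-out refit. At 8 weeks it was 0.27 ± 0.08 (edgeR adjusted p = 0.0425), and leaving out any 1 of the 6 libraries ended that call (edgeR adjusted p 0.0635 to 0.245).

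The 250 bases upstream of the annotated start are shown for the 4 members called higher at both ages. A string with the GGAA core is marked because PU.1 is the lineage factor of the set. Whether these 4 genes share a regulator was not tested. The sequences come from the RefSeq promoter table (GRCm38.p6), 5′ to 3′ on the strand of each gene. Capitals mark GAGGAA or, on the other strand, its reverse complement. The regions are chr3:95526536-95526785 (plus strand) for Ctss, chr4:130913066-130913315 (plus) for Laptm5, chr7:142387828-142388077 (minus) for Ctsd and chr19:12460520-12460769 (plus) for Mpeg1.
Ctss: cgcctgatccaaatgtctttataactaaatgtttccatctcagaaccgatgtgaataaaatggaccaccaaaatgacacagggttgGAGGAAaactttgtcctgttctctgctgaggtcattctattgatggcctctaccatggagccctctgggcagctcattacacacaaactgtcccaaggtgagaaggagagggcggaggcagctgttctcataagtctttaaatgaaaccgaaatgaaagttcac
Laptm5: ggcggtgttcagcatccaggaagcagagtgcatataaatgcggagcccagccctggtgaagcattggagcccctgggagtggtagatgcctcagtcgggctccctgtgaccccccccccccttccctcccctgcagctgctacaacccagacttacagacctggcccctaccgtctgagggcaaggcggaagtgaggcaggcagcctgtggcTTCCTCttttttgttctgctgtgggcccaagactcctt
Ctsd: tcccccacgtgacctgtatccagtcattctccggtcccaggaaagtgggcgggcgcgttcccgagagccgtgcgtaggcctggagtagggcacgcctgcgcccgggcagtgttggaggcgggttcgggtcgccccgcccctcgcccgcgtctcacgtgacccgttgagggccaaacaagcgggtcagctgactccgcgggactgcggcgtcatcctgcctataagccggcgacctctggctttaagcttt
Mpeg1: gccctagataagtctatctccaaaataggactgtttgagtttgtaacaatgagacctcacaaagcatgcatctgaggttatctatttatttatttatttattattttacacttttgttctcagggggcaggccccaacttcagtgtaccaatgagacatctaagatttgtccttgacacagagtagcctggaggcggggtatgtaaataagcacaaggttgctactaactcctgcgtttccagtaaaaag
A match began 164 bases before the start in Ctss and 38 bases before it in Laptm5, the latter on the opposite strand, and there was none in Ctsd or Mpeg1.

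Windows of 300 bases, 250 before and 50 after the start, were at hand for 26 of the 34 members. The windows were searched on both strands for 3 nested strings: GAGGAAGT, its first 6 letters GAGGAA, and the core GGAA that both contain. GAGGAAGT was found in 1 of the 26 members, Ctss, beginning 2 bases before the start on the opposite strand, a share of 3.85% against 3.69% of 27025 genes. GAGGAA was found in 16 members (61.5%) and 31.3% of all genes, a form added after the other 2. GGAA was found in all 26 and in 96.5% of all genes. Some genes, Apoe and Ptprc among them, have several windows and so more letters in which a match can fall. These are descriptions of letters and carry no measurement of binding.

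Gpnmb, a transmembrane glycoprotein of phagosomes and of pigment granules (ENSMUSG00000029816, chromosome 6), was the lysosomal member called at 4 weeks only. It stood at 4.85, 11.9 and 7.38 CPM in C57BL/6J and 18.6, 15.9 and 13.01 CPM in JR5558 at 4 weeks, then 11.7, 10.8 and 8.82 CPM against 13.7, 17.3 and 16.5 CPM at 8 weeks. The strains did not overlap at either age, with 0.98 ± 0.23 at 4 weeks (edgeR adjusted p = 0.0121) and 0.60 ± 0.22 at 8 weeks (edgeR adjusted p = 0.148). Leaving out JR5558 4-week replicate 1 ended the 4-week call (edgeR adjusted p = 0.0528), as did the fit of 4-week libraries alone (edgeR adjusted p = 0.0703). The strain effects at the 2 ages differed by -0.38 ± 0.32, which did not pass (edgeR adjusted p = 0.842).

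Lyz2, the lysozyme of macrophages (ENSMUSG00000069516, chromosome 10), passed at 8 weeks. Its CPM was 1.73, 2.76 and 2.77 in C57BL/6J and 5.12, 3.24 and 4.12 in JR5558 at 4 weeks, and 3.60, 3.37 and 1.66 against 6.02, 6.25 and 7.58 at 8 weeks. The strains were apart at both ages, by 0.78 ± 0.28 (edgeR adjusted p = 0.123) and 1.20 ± 0.27 (edgeR adjusted p = 0.0119). The 8-week call was lost without C57BL/6J replicate 3 (edgeR adjusted p = 0.0675) or JR5558 replicate 3 (edgeR adjusted p = 0.0770). Lyz1, a near-identical copy, held 0 to 4 counts per library, and how reads that fit both were counted is not given in the sources used here.

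Ctsz, the carboxypeptidase cathepsin Z (ENSMUSG00000016256, chromosome 2), stood at 30.6, 30.9 and 25.2 CPM in C57BL/6J and 36.3, 37.1 and 34.02 CPM in JR5558 at 4 weeks. The 8-week values were 32.7, 34.2 and 34.6 CPM against 43.0, 44.1 and 45.9 CPM. Again the strains did not overlap, with 0.31 ± 0.09 at 4 weeks (edgeR adjusted p = 0.0596) and 0.39 ± 0.09 at 8 weeks (edgeR adjusted p = 0.0165). The 8-week call ended when 1 of 4 libraries, replicates 1 and 2 of C57BL/6J and 2 and 3 of JR5558, was left out (edgeR adjusted p 0.0567 to 0.0923). In the deposited positions Ctsz overlaps Nelfcd on the opposite strand, which held up to 1939 counts, and whether counting used strand is not given in the sources used here, so its values are uncertain.

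Cst7, cystatin F, an inhibitor of lysosomal cysteine proteases (ENSMUSG00000068129, chromosome 2), was close to the limit of detection. It held 0, 1 and 8 counts in C57BL/6J and 15, 3 and 12 in JR5558 at 4 weeks, and 0, 0 and 3 against 9, 12 and 35 at 8 weeks. The strains did not overlap at 8 weeks, with a ratio of group counts of 16.9 and an exact 95% counting interval of 5.51 to 84.6 that covers counting error only. JR5558 replicate 3 held 35 of the 56 JR5558 counts. It was called at 8 weeks (edgeR adjusted p = 0.0450), but it passed the filter on low counts through 4 JR5558 libraries alone, and so could be tested only because it was high there. The call was kept in 1 of the 6 refits with 1 library left out, the one without C57BL/6J replicate 3, whose remaining C57BL/6J libraries held 0 counts. It was lost without any of the other 5 (edgeR adjusted p 0.0574 to 0.289). The fitted log2 fold change, which is no bound at such counts, went from 3.93 to 3.08 without JR5558 replicate 3 and to 7.18 without C57BL/6J replicate 3.

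The lysosomal members without a call at either age were Cd68, Cd63, Ctsb and Cst3. Cd68, the macrophage lysosomal glycoprotein macrosialin, had 20, 30 and 26 counts in C57BL/6J and 58, 31 and 72 in JR5558 at 4 weeks (0.94 ± 0.33, edgeR adjusted p = 0.114), and overlapped at 8 weeks (0.28 ± 0.33). Cd63, a tetraspanin of late endosomes and pigment granules, differed by 0.24 ± 0.10 and 0.22 ± 0.10 (edgeR adjusted p = 0.161 and 0.241). Ctsb, cathepsin B, was the best measured of the members that showed no difference. Its log2 fold change at 8 weeks was 0.00 with a 95% interval of -0.14 to 0.15, and at 4 weeks 0.07 with an interval of -0.08 to 0.21. It overlaps Fdft1, up to 2342 counts, on the opposite strand. Cst3 was higher in all 3 JR5558 libraries at 8 weeks, at 879 ± 82.7 against 742 ± 37.8 CPM, and did not pass (0.25 ± 0.10, edgeR adjusted p = 0.186).

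**Figure D4:**
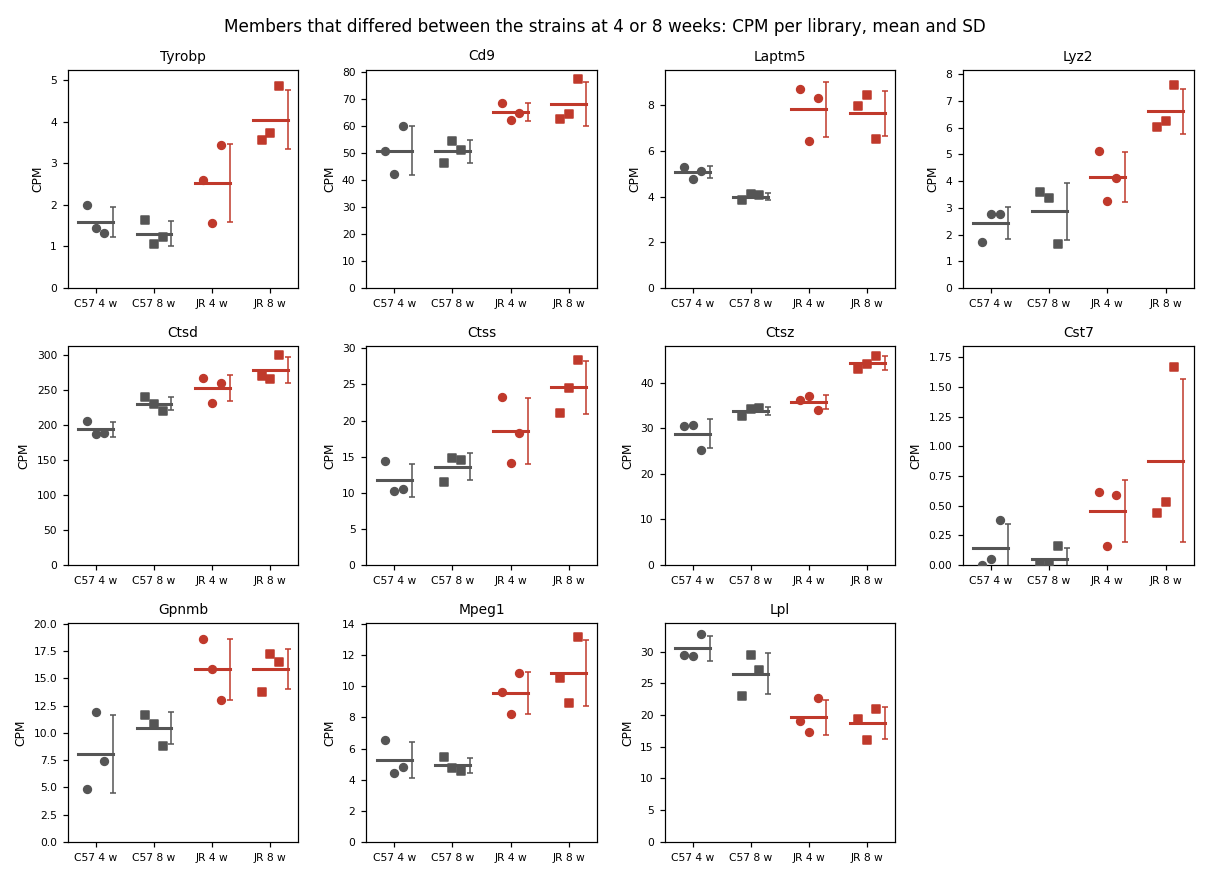
CPM per library for the 11 members called in at least 1 strain comparison, with the mean and SD of each group of 3 (grey C57BL/6J, red JR5558, circles 4 weeks, squares 8 weeks). JR5558 points lie above those of C57BL/6J at the same age in all but Lpl, where they lie below, and in Tyrobp, Ctss and Cst7 at 4 weeks, where the groups overlap.

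The NADPH oxidase of phagocytes has a membrane core of 2 chains, gp91phox from Cybb and p22phox from Cyba. Cybb held 0 to 16 counts per library and was not tested. Its group totals were lower in JR5558. They were 16 counts in C57BL/6J and 13 in JR5558 at 4 weeks, and 23 against 10 at 8 weeks. Cyba stood at 4.39, 3.65 and 4.22 CPM in C57BL/6J and 5.78, 5.45 and 6.67 CPM in JR5558 at 8 weeks. These groups did not overlap, but the difference did not pass (0.54 ± 0.29, edgeR adjusted p = 0.359). At 4 weeks they overlapped (-0.13 ± 0.30), with C57BL/6J replicate 3 lowest at 1.93 CPM.

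Lipid handling was the one role with a member that fell. Lpl, the enzyme that frees fatty acids from triglyceride-rich lipoproteins (ENSMUSG00000015568, chromosome 8), stood at 29.5, 29.3 and 32.8 CPM in C57BL/6J and 19.0, 17.3 and 22.7 CPM in JR5558 at 4 weeks. At 8 weeks the values were 23.0, 29.4 and 27.1 CPM against 19.3, 16.1 and 21.0 CPM. Every JR5558 library was below every C57BL/6J library of its age. Lpl fell by 0.63 ± 0.13 on the log2 scale at 4 weeks (edgeR adjusted p = 0.00442), which held in all 6 leave-one-out refits, and by 0.49 ± 0.13 at 8 weeks (edgeR adjusted p = 0.0310). The 8-week call ended when 1 of 4 libraries, replicates 2 and 3 of C57BL/6J and 1 and 2 of JR5558, was left out (edgeR adjusted p 0.0945 to 0.217). As background, Lpl is known as a gene that activated microglia raise. Its level in whole retina cannot be assigned to myeloid cells, and which cells account for the lower values was not tested. Apoe, the other lipid member, overlapped between strains at both ages (0.08 ± 0.17 and 0.19 ± 0.17). Its lowest value, 412 CPM, was in C57BL/6J 4-week replicate 3, against 705 and 869 CPM in the other 2 libraries of that group.

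Aif1, which encodes the actin-binding protein IBA1 used to stain microglia, held 5, 12 and 6 counts in C57BL/6J and 20, 27 and 22 in JR5558 at 4 weeks. It held 8, 0 and 8 against 16, 28 and 27 at 8 weeks. The strains were apart at both ages, but the log2 fold changes of 1.45 ± 0.62 and 2.00 ± 0.65 did not pass (edgeR adjusted p = 0.204 and 0.0911). In C57BL/6J, Aif1 reached the filter on low counts in 1 library at 4 weeks and 0 at 8 weeks. In JR5558 it did so in 3 libraries at each age, and so Aif1 could be tested only because it was high there. Spi1, the gene of PU.1, had 12, 11 and 8 counts against 21, 23 and 29 at 4 weeks (1.10 ± 0.46, edgeR adjusted p = 0.195) and overlapped at 8 weeks (0.54 ± 0.45). Depth limited these comparisons: the standard error at 8 weeks had a median of 0.45 over the 16 tested members with a mean under 3 CPM and of 0.16 over the other 15.

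Age made no difference that passed among the members. In C57BL/6J, 0 of the 31 differed between 8 and 4 weeks, against 0.431% of all tested genes, and 5 had an unadjusted p under 0.05. The smallest adjusted p was that of Cd63 (0.33 ± 0.10, edgeR adjusted p = 0.136), with 58.5, 64.1 and 60.7 CPM at 8 weeks and 49.9, 47.4 and 48.8 CPM at 4 weeks. Apoe passed when C57BL/6J 4-week replicate 1 was left out (0.67, edgeR adjusted p = 0.0487). In JR5558 there were again 0, against 1.51% of all genes by adjusted p, and 9 members had an unadjusted p under 0.05. The share of all genes with an unadjusted p under 0.05 is not given here for any comparison. Counts of members at that level are therefore not read as a result. In JR5558 Ctsz came nearest (0.31 ± 0.09, edgeR adjusted p = 0.101), and Cst3 passed without JR5558 4-week replicate 3 (0.40, edgeR adjusted p = 0.0388). DESeq2, run as an alternative, called 0 members in C57BL/6J and 1 in JR5558. The strain effect differed between ages for 0 of the 31 members by edgeR and by DESeq2, against 0.0927% of all genes by edgeR, with 1 unadjusted p under 0.05, that of Fcer1g. Calls at 8 weeks that are missing at 4 weeks, such as Tyrobp, Lyz2 and Cd9, are therefore not shown to differ between the ages.

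The list of other activated myeloid genes, kept apart from the 34, gave mixed directions. Of 18 tested, 2 were higher and 1 lower at 4 weeks, and 1 higher and 2 lower at 8 weeks. Lgals3, galectin-3, rose at both ages (2.12 ± 0.25 and 2.19 ± 0.23), and Cd74, the invariant chain of MHC class II, rose at 4 weeks (1.85 ± 0.34, edgeR adjusted p = 0.00198). Fabp5, a fatty acid binding protein, fell at both ages, and Spp1, osteopontin, fell at 8 weeks (-0.52 ± 0.13, edgeR adjusted p = 0.0252). Like Lpl, these 2 are named among genes that activated microglia raise, and both are also made by other retinal cells. Of 18 other lysosomal genes, all tested, 4 were higher at 4 weeks (Ctsl, Ctsc, Grn and Npc1) and 2 at 8 weeks (Ctsl and Npc1), and none was lower. Of the genes downstream of ITAM adaptors 0 of 10 passed at either age (medians 0.28 and 0.44), nor did any of 4 other oxidase genes or 8 other myeloid lineage factors. The nearest were Plcg2 (0.83 ± 0.30, edgeR adjusted p = 0.140), Ncf1 (1.32 ± 0.40, edgeR adjusted p = 0.0693) and Cebpa (1.03 ± 0.30, edgeR adjusted p = 0.0563), each at 8 weeks.

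Genes of resting microglia were also measured. The summed CPM of 12 homeostatic genes was 58.3 to 67.7 at 4 weeks and 60.2 to 64.5 at 8 weeks in C57BL/6J, and 80.3 to 88.5 and 80.4 to 93.0 in JR5558, so the strains did not overlap. Such a sum gives most weight to the most abundant genes. The median log2 fold change over the 12 was 0.20 at 4 weeks and 0.61 at 8 weeks. Of the 12, 2 were higher at each age and 0 lower. Among them were Olfml3 at both ages and Csf1r, the receptor that microglia need to survive, at 8 weeks (0.67 ± 0.13, edgeR adjusted p = 0.00289). P2ry12 (0.18 ± 0.29 and 0.68 ± 0.30) and Tmem119 (-0.52 ± 0.32 and 0.74 ± 0.31), which mark resting microglia most closely, did not pass. Markers of cells that could enter from blood or the eye's borders were measured at unlike levels. The 8 border and perivascular macrophage genes summed to 20.1 to 29.5 CPM per library (383 to 565 counts), most of it Lyve1 (279 to 462 counts) and Stab1 (55 to 124), which vessels also express, while Cd163 held 0 to 5 counts. Of these 8 genes 2 could be tested and 0 passed, with Lyve1 at 0.33 ± 0.11 at 4 weeks (edgeR adjusted p = 0.0837). Ccr2 held 0 to 4 counts per library and Ly6c2 0 or 1, both of inflammatory monocytes, S100a8 of neutrophils held 0 to 4, and Cd3e of T cells 0 in all 12. Of the monocyte, neutrophil and lymphocyte lists, 2, 1 and 1 genes could be tested, and 0 passed. The 6 monocyte markers summed to 10.1 to 15.2 CPM per library, nearly all of it Ace, with 173 to 305 counts, which vessels also express. At 4 weeks the sums of the monocyte and neutrophil lists were higher in JR5558 without overlap (12.3 to 15.2 against 10.4 to 11.5 CPM, and 1.57 to 1.83 against 0.836 to 1.06 CPM). The 2 tested monocyte genes had opposite signs at 4 weeks and neither passed, with Ace at 0.39 ± 0.14 (edgeR adjusted p = 0.134) and Treml4, with 1 to 19 counts in C57BL/6J and 0 to 1 in JR5558, at -4.20 ± 1.24 (edgeR adjusted p = 0.0520). The part of these cells in the members' differences was not tested.

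Marker genes of cells other than myeloid ones also differed between the strains. The summed CPM of 12 pigment epithelium markers was 150 to 230 and 182 to 288 in C57BL/6J and 365 to 473 and 403 to 525 in JR5558, at 4 and 8 weeks, and 10 of the 12 were higher at 4 weeks and 4 at 8 weeks. Of 10 Müller glia and astrocyte genes 7 and 4 were higher. The summed level of endothelial genes was lower at 8 weeks: the 9 summed to 61.9 to 69.7 CPM in JR5558 and 82.7 to 88.9 CPM in C57BL/6J, with a median log2 fold change of -0.32. Of these 9, 1 was lower, Cldn5, a tight junction protein (-0.65 ± 0.14, edgeR adjusted p = 0.00918). At 4 weeks their sums overlapped. Gpnmb, Cd63 and Ctsd are known to be expressed in pigment epithelium too, and Apoe and Cst3 in Müller glia. The part of these cells in the members' differences was not tested. The 7 lens genes summed to between 0.491 and 134 CPM, and the top value was in replicate 3 of C57BL/6J at 4 weeks, the library with the lowest Apoe and Cyba.

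**Figure D5:**
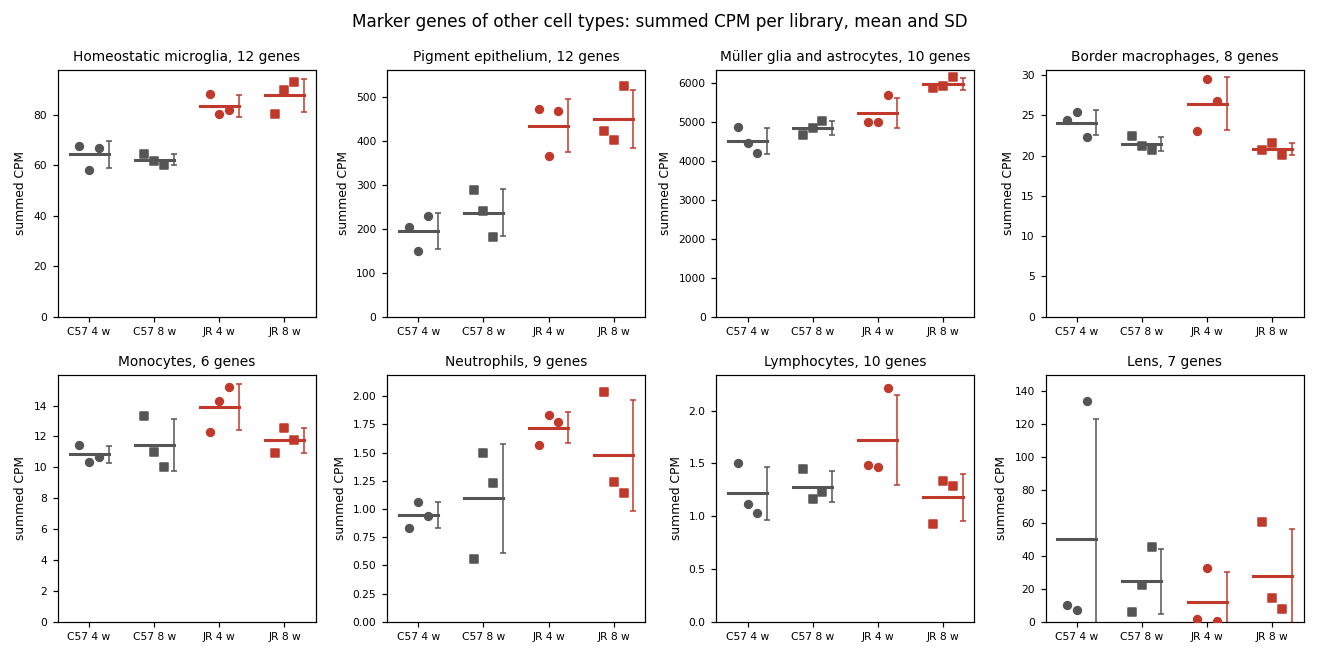
Summed CPM of marker genes of other cell types in each library, with the mean and SD of each group of 3 (grey C57BL/6J, red JR5558, circles 4 weeks, squares 8 weeks). Homeostatic microglia and pigment epithelium genes lie higher in JR5558 at both ages without overlap, neutrophil and lymphocyte genes reach at most 2.21 CPM in any library, and lens genes peak at 134 CPM in 1 library. SD bars that reach below 0 are not drawn past it.

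In the authors' deposited table, whose test is not stated, 3 members were higher and 1 lower at an adjusted p under 0.05 at 4 weeks, and 14 were higher and 1 lower at 8 weeks. The share of all genes called there is not given here. These member counts, by strain or by age, therefore have no background beside them and are not read as a result about the members. At 8 weeks the authors' deposited table calls Trem2 (log2 fold change 1.16, adjusted p = 0.0163), Itgb2 (1.52, adjusted p = 0.0361) and Aif1 (2.03, adjusted p = 0.0467), and also Cst3, Gpnmb and Apoe, which did not pass in the fit described here. Cst7 has an adjusted p of 1 there. For age, the authors' deposited table holds 0 calls among the members in C57BL/6J and 3 in JR5558, Ctsz, Cst3 and Apoe, all higher at 8 weeks.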

How the data were processed

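Raw counts for each gene in each library were deposited, per the file headers and the values, beside FPKM values by the authors. The authors also deposited their own log2 fold changes with p-values, raw and adjusted. The submitters' processing notes name fastp, HISAT2 2.0.5, featureCounts 1.5.0-p3 and mm10. The labels' protocol mentions directional and non-directional libraries, so use of strand is not settled, and the build of the deposited positions is not settled either. Genes passing filterByExpr by group (minimum count 10, total 15; 18334 genes, 99.9% of counts) were fitted with edgeR 4.0.16 in R 4.3.3: TMM, 1 mean per group over all 12 libraries, quasi-likelihood test (2-sided), Benjamini-Hochberg adjustment over all 18334 genes, threshold 0.05. FPKM values were used only to order genes by level. The members, their 6 roles, the 17 other lists (169 genes, 132 tested) and the tests were chosen with earlier results of these data known. Called members were to be named with every library, up to 3 others per role and up to 3 genes per other list in order of adjusted p; further genes named (P2ry12, Tmem119, Ccr2, Ly6c2, Cd163, S100a8, Cd3e, Stab1 and the remaining uncalled members) were picked after their values were seen. Alternatives were RLE scaling, no count filter, at least 1 CPM in 3 libraries, DESeq2 1.42.0, a fit of only the groups compared, a replicate block and leaving out each library. Counts without Cst7 were added after seeing the data. The pipeline was tested on simulated data. Sequences are from RefSeq tables. Further lists were used as checks: red cells (5 tested) had 0 calls at either age, and lens genes (7 tested) had 0. Of 8 retina identity genes 2 were higher and 1 lower at 4 weeks and 1 and 3 at 8 weeks, and of 5 sex-linked genes 4 were higher and 1 lower at 4 weeks and 0 passed at 8 weeks. The result of 1 gene of these lists is not reported here.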

Additional observations from a re-analysis of the deposited data

How the results depend on the processing

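Of the 6 members called at 4 weeks, 2 (Ctsd and Lpl) passed in every alternative, and of the 10 at 8 weeks 4 (Tyrobp, Laptm5, Ctss and Mpeg1). No called member changed sign. Cst7 was not tested at 8 weeks with at least 1 CPM in 3 libraries or with only the groups compared, where it did not pass the filter. At 4 weeks 3 members passed with only the groups compared, and 3 to 6 with 1 library left out, with 3 when replicate 2 of C57BL/6J or replicate 1 of JR5558 was out. At 8 weeks 5 to 7 passed with 1 library left out, with 5 when C57BL/6J replicate 2 was out, or either of replicates 2 and 3 of JR5558, and 6 when C57BL/6J replicate 3 was. With no filter on low counts 15 passed, and the count over all genes at 8 weeks in that setting is not given here. Without Cst7, an alternative chosen after seeing the data, 9 were called at 8 weeks and 6 at 4 weeks. For age in C57BL/6J 1 member (Apoe) passed with no filter on low counts and 0 to 1 with 1 library left out. For age in JR5558 3 passed with no filter, 1 with DESeq2, 1 with only the groups compared, and 0 to 1 with 1 library left out. Over all genes, only the groups compared gave 558 calls at 4 weeks (1130 in the fit of all libraries), 2183 at 8 weeks (949), 22 for age in C57BL/6J (79) and 544 for age in JR5558 (277). No filter gave 445 and 854 for age and 96 for the change in strain effect (17), and DESeq2 gave 407, 746 and 63. With 1 library left out the calls over all genes ran from 814 to 1162 at 4 weeks, 538 to 649 at 8 weeks, 16 to 125 and 63 to 689 for age in C57BL/6J and JR5558, and 6 to 38 for the change in strain effect. The cause of these shifts was not tested. Refits with a library left out also have fewer samples.

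Same-numbered libraries did not deviate together (correlations from -0.0907 to 0.0867). Each correlation rests on deviations from means of 3 libraries, so whether the numbers pair the samples is not settled. With the replicate block 5 members passed at 4 weeks and 10 at 8 weeks, and 1010 and 845 of all genes. Laptm5 at 4 weeks did not pass under the block (adjusted p = 0.0592).

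Depth limits the set: 16 of the tested members averaged under 3 CPM, where a difference of 2 standard errors is 1.87-fold at the median, against 1.25-fold for the other 15. These values describe precision and are not the smallest change that can pass the adjusted threshold. Trem2 and Itgb2 at 8 weeks differed by more than 1.87-fold and did not pass.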
